A study of Mus musculus with 9 samples.

Results

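The renal urate transporters are membrane proteins that carry urate, a product of purine breakdown, into and out of the cells of the kidney tubule. Their genes were taken from a list of 10 symbols chosen by name, and all 10 were found among the 55385 genes of the expression table. All 10 passed the filter on low counts and were among the 21392 genes tested.

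Kidneys of 9 male adult C57BL/6 mice were sequenced after selection of poly(A) RNA, each mouse giving a single library. The 3 Control mice were untreated, and although their sample titles carry the name of the disease model, their disease state is given as control. The 3 HN mice had hyperuricemic nephropathy, induced by feeding adenine and potassium oxonate on alternate days. Adenine is itself known to injure tubules, so that the model joins urate excess with another injury. The 3 PEC mice received the same feeding and the flavonoid pectolinarigenin by mouth each day. The labels give no dose, which in the study's text is the lower of its PEC doses. The mice carry the numbers 2, 4 and 5 (Control), 4, 8 and 12 (HN), and 1, 2 and 3 (PEC).

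Total counts per library were 75320528, 74965874 and 78459183 for the Control mice, 74315544, 81069646 and 74212324 for the HN mice and 74397038, 65583215 and 57714111 for the PEC mice. PEC mouse 3 had the lowest depth. Levels are given between mice as CPM, counts scaled to a common library size with edgeR's TMM factors, and between genes as the deposited FPKM, the scale that takes gene length into account. The groups differed in the make-up of their libraries. Mitochondrially encoded genes took 12.9% to 16.3% of the counts in Control mice, 10.3% to 13.6% in PEC mice and 6.01% to 6.34% in HN mice, and the TMM factors were 0.78 to 0.83, 1.02 to 1.05 and 1.15 to 1.22 in the same order. The PEC libraries also stood apart by gene length. Across genes, which are not independent replicates, Spearman's rho between gene length and a library's deviation from the mean of all libraries was -0.28 to -0.24 in PEC, 0.050 to 0.075 in Control and 0.17 to 0.20 in HN libraries. For GC content, rho was 0.15 to 0.17 in PEC libraries and -0.18 to -0.057 in the others, and ribosomal RNA genes took 0.309% to 0.957% of the counts in PEC against 0.0671% to 0.254% in the others. Treatment with PEC and this difference between libraries cannot be told apart.

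Urate is filtered in the glomerulus and then both reabsorbed and secreted, mostly in the proximal tubule. Reabsorption runs through URAT1 (Slc22a12) and OAT10 (Slc22a13) in the apical membrane and GLUT9 (Slc2a9), which passes urate on to the blood. Secretion begins with the basolateral organic anion transporters OAT1 (Slc22a6) and OAT3 (Slc22a8) and ends with apical carriers such as BCRP (Abcg2), MRP4 (Abcc4) and the sodium phosphate transporter family members Slc17a1, Slc17a3 and Slc17a4.

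On GRCm38, the reabsorption genes are Slc22a12 (ENSMUSG00000061742, chr19:6535845-6543032), Slc2a9 (ENSMUSG00000005107, chr5:38349273-38503143) and Slc22a13 (ENSMUSG00000074028, chr9:119192974-119209098). The uptake genes Slc22a8 (ENSMUSG00000063796, chr19:8591254-8611834) and Slc22a6 (ENSMUSG00000024650, chr19:8618039-8628299) are neighbours on the same strand. The efflux genes are Abcg2 (ENSMUSG00000029802, chr6:58584523-58695676), Abcc4 (ENSMUSG00000032849, chr14:118482692-118706219), Slc17a3 (ENSMUSG00000036083, chr13:23839434-23860716), Slc17a1 (ENSMUSG00000021335, chr13:23867750-23895730) and Slc17a4 (ENSMUSG00000021336, chr13:23895890-23915007), the last 3 of them side by side. Abcc4 holds 3 small genes, with mean levels of at most 0.00122 CPM. Slc22a13 overlaps Slc22a14 on its own strand, whose mean level was 0.269 CPM. Whether the counting used strand, and how it treated reads shared by related family members, is not given in the sources used here.

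RefSeq promoter windows on GRCm38.p6, from 250 bases before to 50 after a listed start, were found for 9 of the 10 genes, in 13 windows. They were searched on both strands for CAAAGT, the start of the HNF4 motif, since HNF4 factors act in proximal tubule cells. CAAAGT was in 2 of the 13 windows, against 14.4% of all 32851 windows. The 250 bases before the start are shown for the 2 genes with a match, in the direction of transcription and with the matched letters in capitals. These are URAT1, the most abundant transporter, and MRP4, the efflux gene that was higher in HN.
Slc22a12, chr19:6543071-6543320, minus strand: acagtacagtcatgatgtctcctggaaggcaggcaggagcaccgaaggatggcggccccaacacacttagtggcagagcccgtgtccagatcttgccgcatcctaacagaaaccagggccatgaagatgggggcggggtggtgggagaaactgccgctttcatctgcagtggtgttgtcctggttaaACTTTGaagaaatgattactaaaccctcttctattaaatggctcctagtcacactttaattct
Abcc4, chr14:118706220-118706469, minus strand: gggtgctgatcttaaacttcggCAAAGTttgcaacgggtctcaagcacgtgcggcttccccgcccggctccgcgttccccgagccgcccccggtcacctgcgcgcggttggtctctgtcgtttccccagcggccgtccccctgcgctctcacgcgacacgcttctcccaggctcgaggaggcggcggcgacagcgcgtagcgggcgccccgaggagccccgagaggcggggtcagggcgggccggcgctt
The match begins 63 bases before the start in Slc22a12, on the opposite strand, and 228 bases before it in Abcc4. A match describes the letters of the window and not a site that is bound.

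HN against Control asks how the disease model differs from the healthy kidney. In HN mice, 7 of the 10 transporters were lower than in Control mice (Slc22a12, Slc22a13, Slc22a6, Slc22a8, Abcg2, Slc17a1 and Slc17a3), against 14.7% of all tested genes. Only Abcc4 was higher, 1 of 10 against 17.7% of all tested genes, and Slc2a9 and Slc17a4 did not pass. Genes counted here as higher or lower had an edgeR adjusted p of at most 0.05, over all tested genes, and at least a 1.5-fold difference. The median log2 fold change of the 10 transporters was -1.78, beside -0.00081 for all tested genes. Fewer tubule cells and less RNA per cell cannot be told apart in bulk kidney. The scaling moved the values of the whole table. With TMM, 3777 genes were higher and 3154 lower, while library totals alone gave 7707 higher and 1287 lower and moved the median of all genes by 0.56 on the log2 scale. Limma on log2(FPKM + 1), which differs from edgeR also in model and filter, gave 4649 higher and 1024 lower of 15508 genes tested, with a shift of 0.35. The 7 lower transporters were lower by both as well.

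PEC against HN asks what the treatment changed. In PEC mice, 5 of the 10 transporters were higher than in HN mice (Slc22a12, Slc22a13, Slc22a6, Slc22a8 and Slc17a1), against 13.4% of all tested genes. With edgeR, 0 of 10 were lower, against 15.3% of all tested genes. With the same minimum fold, the number lower was also 0 at an unadjusted p of at most 0.05, with DESeq2 and with limma. Without a minimum fold, 1 was lower at an unadjusted p of at most 0.05, namely Abcc4. The median log2 fold change of the transporters was 0.66, beside -0.015 for all tested genes. Among all tested genes 2875 were higher and 3266 lower, against 1951 and 4631 with library totals alone, which moved the median of all genes by -0.20, and 1356 and 3390 with limma on log2(FPKM + 1), with a shift of -0.17 over its own tested genes. Of the 10 transporters, 4 were higher by both, Slc22a12 not being called. With each mouse left out, 4 to 6 transporters were higher by edgeR.

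PEC against Control asks what distance from the healthy kidney was left. Here 6 of the 10 transporters were lower (Slc22a12, Slc22a13, Slc22a6, Abcg2, Slc17a1 and Slc17a3), against 17.4% of all tested genes, and Abcc4 was higher, 1 of 10 against 18.9%, and 0 of 10 without Control mouse 5. The median of the transporters was -0.82, beside 0.045 for all tested genes. Among all tested genes 4053 were higher and 3731 lower, against 6414 and 1962 with library totals alone, a shift of the median by 0.36, and 3581 and 1485 with limma on log2(FPKM + 1), with a shift of 0.15 over its own tested genes. Of the 10 transporters, 4 were lower by both, Slc22a13 and Slc17a1 being under the minimum fold. The 3 comparisons share their mice, each group entering 2 of them, so that they are not independent of each other.

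**Figure D1:**
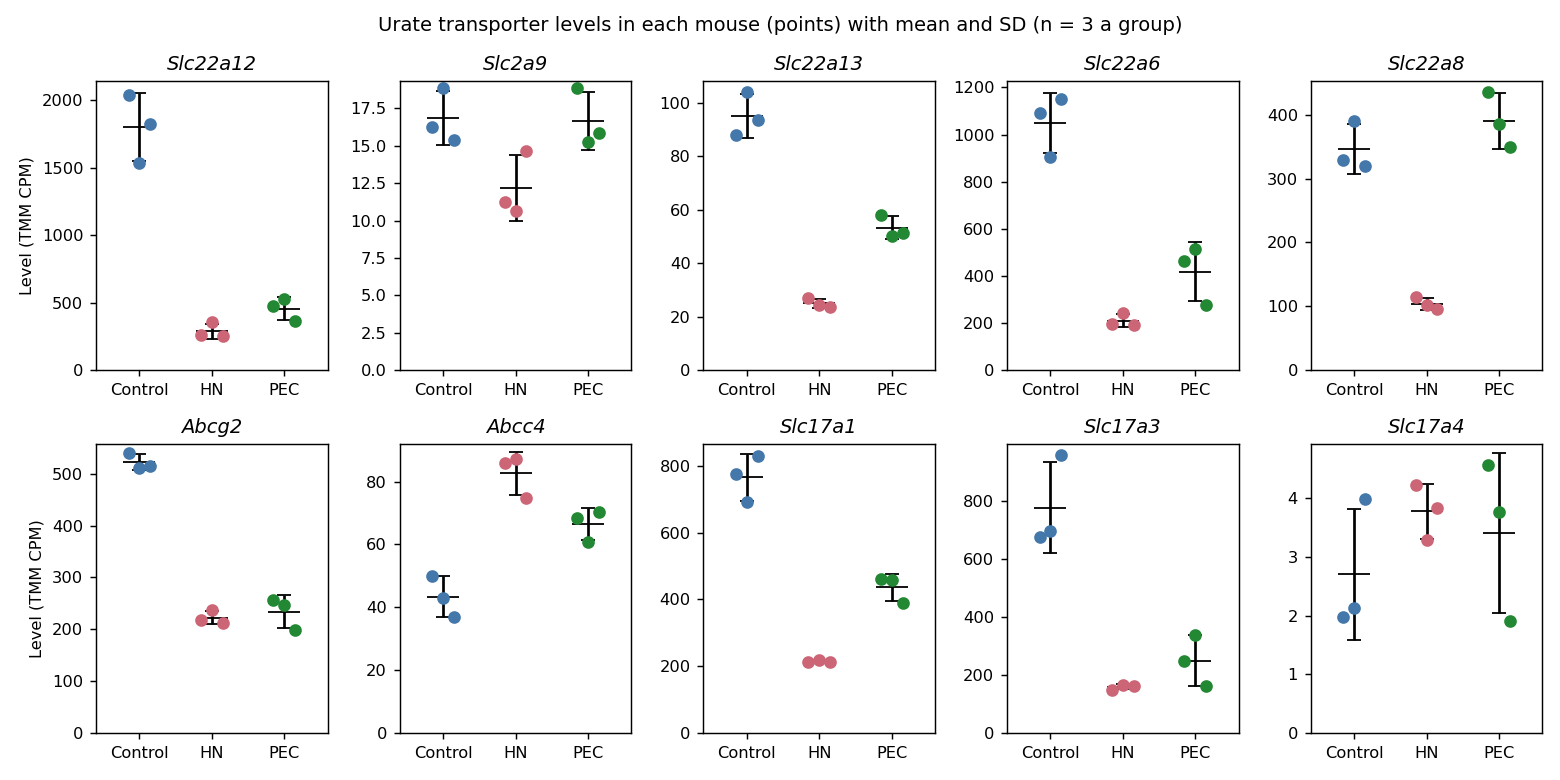
Level of each transporter in each mouse, in TMM CPM on a linear axis that starts at 0. Points are mice, and the line and bars are the mean and SD of the 3 mice of a group; Slc22a12 lay at 250.0 to 354 CPM in HN mice, under every Control mouse.

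By FPKM, Slc22a12 was the most abundant transporter in each group. In Control mice it reached 588 ± 79.8 FPKM (SD, n = 3), followed by Slc17a1 with 239 ± 15.5 FPKM, Slc22a6 with 195 ± 19.2 FPKM, Slc17a3 with 84.3 ± 14.5 FPKM and Slc22a8 with 65.6 ± 8.98 FPKM. Then came Abcg2 with 47.4 ± 2.19 FPKM, Slc22a13 with 35.2 ± 3.66 FPKM, Abcc4 with 5.03 ± 0.858 FPKM, Slc2a9 with 2.45 ± 0.331 FPKM and Slc17a4 with 0.333 ± 0.127 FPKM. Of the neighbours in this order, only Slc17a3 and Slc22a8 overlapped between mice. In HN mice Slc22a12 was still ahead, at 136 ± 28.9 FPKM, but Abcg2 (29.2 ± 1.92 FPKM) and Slc22a8 (28.5 ± 1.79 FPKM) now stood before Slc17a3, and Abcc4 (13.8 ± 0.972 FPKM) level with Slc22a13 (13.4 ± 0.469 FPKM). The overlapping neighbours in HN were Abcg2 with Slc22a8 and Abcc4 with Slc22a13. In PEC mice Slc22a12 (186 ± 33.9 FPKM) and Slc17a1 (169.8 ± 15.7 FPKM) overlapped, as did Slc22a6 (96.7 ± 29.2 FPKM) with Slc22a8 (91.8 ± 10.2 FPKM), Slc17a3 with Abcg2, and Abcg2 with Slc22a13. The share of Slc22a12 in the summed FPKM of the 10 transporters was 46.6% in Control mice, 29.0% in PEC mice and 33.8% in HN mice.

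Among the reabsorption transporters, Slc22a12, which encodes the apical urate exchanger URAT1, was at 2039, 1536 and 1819.7 CPM in Control mice 2, 4 and 5, 257, 354 and 250.0 CPM in HN mice 4, 8 and 12, and 473, 530.3 and 367 CPM in PEC mice 1, 2 and 3. The 3 groups did not overlap, with HN lowest and PEC between HN and Control. It was 6.26-fold lower in HN than in Control (log2 fold change -2.65, SE 0.19, edgeR adjusted p = 1.04e-05). In PEC it was 1.59-fold higher than in HN (log2 fold change 0.67, SE 0.18, edgeR adjusted p = 0.0181) and 3.94-fold lower than in Control (log2 fold change -1.98, SE 0.19, edgeR adjusted p = 5.14e-05). The rise with PEC lost its call in 10 of 22 alternatives. Adjusted p ran from 0.00491 to 0.0713 over all 22 alternatives. The log2 fold change stayed above 0 in all of them, at 0.45 to 0.84. It was 0.47 (adjusted p = 0.0663) with library totals alone, 0.45 (adjusted p = 0.0676) with limma on log2(FPKM + 1), 0.57 (adjusted p = 0.0422) in edgeR with the dependence on length removed and 0.54 (adjusted p = 0.0593) with that on GC content and length removed, the last chosen after seeing the data. Leaving out single mice gave 0.59 (adjusted p = 0.0713) without HN mouse 4, 0.57 (adjusted p = 0.0697) without HN mouse 12, 0.64 (adjusted p = 0.0529) without PEC mouse 1 and 0.54 (adjusted p = 0.0599) without PEC mouse 2 by edgeR.

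Slc2a9, which encodes GLUT9, was at 16.3, 18.9 and 15.4 CPM in Control mice 2, 4 and 5, 11.2, 10.6 and 14.7 CPM in HN mice 4, 8 and 12, and 18.8, 15.2 and 15.9 CPM in PEC mice 1, 2 and 3. All HN mice were below all Control and PEC mice, and Control and PEC overlapped. The log2 fold change was -0.47 (adjusted p = 0.037) in HN against Control and 0.45 (adjusted p = 0.0455) in PEC against HN by edgeR, both under the minimum fold of 1.5. In HN against Control the sign was not stable, since the value was 0.089 with library totals alone and 0.042 with limma on log2(FPKM + 1). Without HN mouse 12, the highest of its group, Slc2a9 was called lower in HN (-0.62, edgeR adjusted p = 0.0136) and higher in PEC than in HN (0.60, adjusted p = 0.0184). With the dependence on length removed, it was also called higher in PEC than in HN, at 0.60 (adjusted p = 0.0157). Over all alternatives adjusted p ran from 0.0136 to 0.787 in HN against Control and from 0.0157 to 0.287 in PEC against HN.

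Slc22a13, which encodes the apical exchanger OAT10, was at 87.8, 104 and 93.7 CPM in Control mice 2, 4 and 5, 26.8, 24.4 and 23.8 CPM in HN mice 4, 8 and 12, and 58.2, 50.3 and 51.3 CPM in PEC mice 1, 2 and 3. No mouse of one group overlapped another group. It was 3.8-fold lower in HN than in Control (log2 fold change -1.93, SE 0.10, edgeR adjusted p = 2.53e-06) and 2.13-fold higher in PEC than in HN (log2 fold change 1.09, SE 0.10, edgeR adjusted p = 8.39e-05). Against Control it was 1.79-fold lower in PEC (log2 fold change -0.84, SE 0.099, edgeR adjusted p = 0.000158), a value under the minimum fold with library totals alone (-0.48) and with limma on log2(FPKM + 1) (-0.50).

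The basolateral transporters bring organic anions, urate among them, from the blood into the cell in exchange for dicarboxylates. Slc22a6 (OAT1) was at 1091, 906 and 1152 CPM in Control mice 2, 4 and 5, 196, 242 and 191 CPM in HN mice 4, 8 and 12, and 462, 516 and 276 CPM in PEC mice 1, 2 and 3. The groups were apart, with PEC mouse 3 closest to the HN mice. It was 5.0-fold lower in HN than in Control (log2 fold change -2.32, SE 0.23, edgeR adjusted p = 4.81e-05), 1.99-fold higher in PEC than in HN (log2 fold change 0.99, SE 0.22, edgeR adjusted p = 0.00649) and 2.51-fold lower in PEC than in Control (log2 fold change -1.33, SE 0.22, edgeR adjusted p = 0.00107).

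Its neighbour Slc22a8 (OAT3) was at 329, 390.3 and 319 CPM in Control mice 2, 4 and 5, 115, 102 and 96.0 CPM in HN mice 4, 8 and 12, and 436, 385 and 349 CPM in PEC mice 1, 2 and 3. The HN mice were far below both other groups, and the PEC mice overlapped the Control mice. Slc22a8 was 3.33-fold lower in HN than in Control (log2 fold change -1.73, SE 0.12, edgeR adjusted p = 8.24e-06) and 3.74-fold higher in PEC than in HN (log2 fold change 1.90, SE 0.12, edgeR adjusted p = 2.3e-05). That rise had the largest log2 fold change among the 10 transporters in PEC against HN. In PEC against Control the log2 fold change was 0.17 with a 95% confidence interval from -0.095 to 0.44 (edgeR adjusted p = 0.264). Over all alternatives the value ran from 0.064 to 0.53 and adjusted p from 0.00609 to 0.695, with the upper value from library totals alone, and none passed the call rule. The ratio of Slc22a8 to Slc22a6 by FPKM does not depend on the scaling of libraries, and their lengths in the table are close, 4.33 and 4.41 kb. It was 0.307, 0.439 and 0.282 in Control mice, 0.595, 0.427 and 0.512 in HN mice and 0.959, 0.76 and 1.29 in PEC mice. PEC mice were above all others, while Control and HN overlapped. This ratio is a description chosen after its values were seen, as were 4 other ratios of transporters that were computed.

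**Figure D2:**
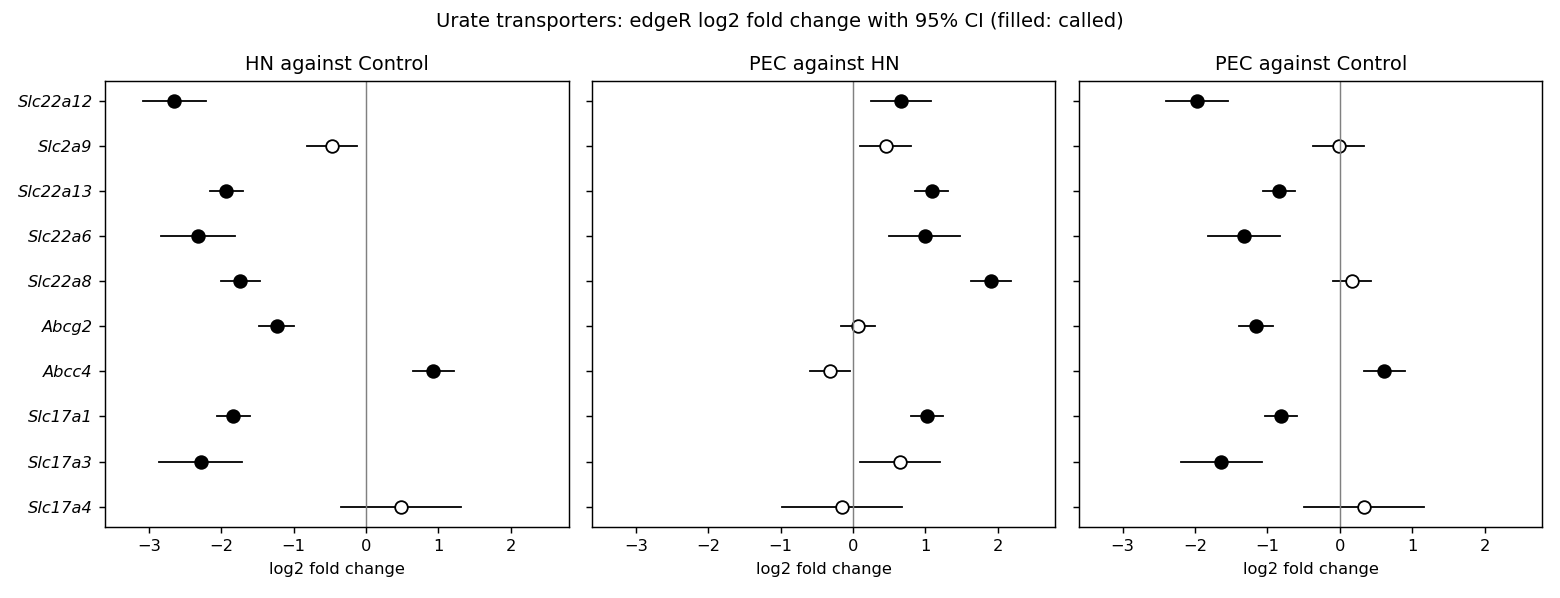
The edgeR log2 fold change of each transporter in the 3 comparisons, with its 95% confidence interval as a line. Filled points passed the call rule and open points did not; in PEC against HN the point farthest to the right is Slc22a8 at 1.90.

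On the efflux side, Abcg2, which encodes the ATP-driven exporter BCRP, was at 541, 512 and 515 CPM in Control mice 2, 4 and 5, 218, 236 and 212 CPM in HN mice 4, 8 and 12, and 257, 247 and 198 CPM in PEC mice 1, 2 and 3. Control mice were above all others, and HN and PEC mice overlapped. Abcg2 was 2.35-fold lower in HN than in Control (log2 fold change -1.23, SE 0.11, edgeR adjusted p = 2.42e-05) and 2.23-fold lower in PEC than in Control (log2 fold change -1.16, SE 0.11, edgeR adjusted p = 4.25e-05). In PEC against HN the log2 fold change was 0.075 (adjusted p = 0.607) by edgeR, with a 95% confidence interval from -0.16 to 0.31. This value depends on how the libraries are treated. It was -0.12 with library totals alone, and 0.73 (edgeR adjusted p = 0.00132), a call, once the dependence on GC content and length was removed. Over all alternatives adjusted p ran from 0.00132 to 0.997. Whether Abcg2 differed in this from the transporters that were higher with PEC was not tested.

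Abcc4, which encodes the exporter MRP4, was the only transporter called higher than in Control by edgeR with TMM factors. It was at 50.1, 43.1 and 37.0 CPM in Control mice 2, 4 and 5, 86.1, 87.1 and 74.9 CPM in HN mice 4, 8 and 12, and 68.5, 60.7 and 70.2 CPM in PEC mice 1, 2 and 3. All HN mice were above all PEC mice, and all PEC mice above all Control mice. Abcc4 was 1.91-fold higher in HN than in Control (log2 fold change 0.93, SE 0.12, edgeR adjusted p = 0.000314) and 1.53-fold higher in PEC than in Control (log2 fold change 0.62, SE 0.12, edgeR adjusted p = 0.00312). Without Control mouse 5 the second value was 0.51, under the minimum fold. PEC against HN gave -0.31 (adjusted p = 0.0716) by edgeR, which did not pass.

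Slc17a1 and Slc17a3 encode the voltage-driven apical carriers NPT1 and NPT4. Slc17a1 was at 777, 691 and 829 CPM in Control mice 2, 4 and 5, 214, 218 and 212 CPM in HN mice 4, 8 and 12, and 462, 459 and 390.5 CPM in PEC mice 1, 2 and 3. The 3 groups were apart, and the HN mice lay within a few CPM of each other. It was 3.57-fold lower in HN than in Control (log2 fold change -1.83, SE 0.10, edgeR adjusted p = 3.05e-06), 2.04-fold higher in PEC than in HN (log2 fold change 1.03, SE 0.098, edgeR adjusted p = 0.000102) and 1.75-fold lower in PEC than in Control (log2 fold change -0.81, SE 0.098, edgeR adjusted p = 0.000179). The last of these was under the minimum fold with library totals alone (-0.45) and with limma on log2(FPKM + 1) (-0.49).

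Slc17a3 was at 674, 696 and 956 CPM in Control mice 2, 4 and 5, 149, 166 and 163 CPM in HN mice 4, 8 and 12, and 249, 339 and 161 CPM in PEC mice 1, 2 and 3. Control mice were above all others, and PEC mouse 3 lay among the HN mice. It was 4.87-fold lower in HN than in Control (log2 fold change -2.28, SE 0.25, edgeR adjusted p = 0.000105) and 3.11-fold lower in PEC than in Control (log2 fold change -1.64, SE 0.25, edgeR adjusted p = 0.000668). PEC against HN gave 0.65 (adjusted p = 0.0632) by edgeR. Without PEC mouse 3 it was 0.91 (edgeR adjusted p = 0.00555), and with DESeq2 0.63 (adjusted p = 0.0359). It was 0.92 (adjusted p = 0.0158) by edgeR with the dependence on length removed and 1.12 (adjusted p = 0.00638) with that on GC content and length removed. Each of these 4 passed the call rule, within a range of adjusted p of 0.00555 to 0.241 over all alternatives. The log2 fold change of Slc17a3 in PEC against HN ran from 0.36 to 0.91 with each mouse left out. Over all alternatives it ran from 0.36 to 1.12. Slc17a4, better known from the intestine, was low, at 1.98, 2.13 and 4.0 CPM in Control mice 2, 4 and 5, 4.22, 3.29 and 3.83 CPM in HN mice 4, 8 and 12, and 4.56, 3.76 and 1.91 CPM in PEC mice 1, 2 and 3. Its groups overlapped, and the edgeR log2 fold changes were 0.48 (adjusted p = 0.334), -0.15 (adjusted p = 0.781) and 0.34 (adjusted p = 0.484) in the 3 comparisons. With library totals alone Slc17a4 was called higher in HN than in Control (1.05, adjusted p = 0.0326 by edgeR), as with limma on log2(FPKM + 0.1), at 0.87 (adjusted p = 0.0452), in a range of 0.0326 to 0.61 over all alternatives.

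Of 16 further genes of urate and anion handling, 13 were lower and 0 higher in HN than in Control by edgeR, 7 were higher and 1 lower in PEC than in HN, and 12 were lower and 0 higher in PEC than in Control. Of all tested genes, 14.7% were lower and 17.7% higher in HN than in Control, 13.4% higher and 15.3% lower in PEC than in HN, and 17.4% lower and 18.9% higher in PEC than in Control. For the called genes named among them, the mice of the groups compared did not overlap. With the same minimum fold, the number higher was 0 and 0 in these comparisons with Control at an unadjusted p of at most 0.05, 0 and 0 with DESeq2, and 0 and 0 with limma on log2(FPKM + 1). In PEC against HN 8 were higher with this minimum at an unadjusted p of at most 0.05, 7 with DESeq2 and 3 with limma on log2(FPKM + 1). Of 6 further carriers, 5 were lower in HN than in Control and 0 higher by edgeR, with a median log2 fold change of -1.75. Slc22a7 (OAT2) had -4.60 (adjusted p = 0.000553), Slc22a19, an organic anion transporter of the rodent kidney, -3.55 (adjusted p = 3.87e-05), and Abcc2 (MRP2) -1.52 (adjusted p = 8.32e-06). Slc16a9, a monocarboxylate transporter, had -1.97 (adjusted p = 1.11e-05) and the urate carrier Slc2a12 (GLUT12) -1.37 (adjusted p = 0.0016), and Slc17a2 was nearly silent, at 0.259, 0.0802 and 0.164 CPM in the Control mice, and did not pass. With PEC, 1 of the 6 was higher than in HN, namely Slc22a19 with 1.63 (adjusted p = 0.00325), and Abcc2 with 0.50 (adjusted p = 0.00537) was under the minimum fold. Abcc2 was called higher with the dependence on length removed, at 0.86 (adjusted p = 0.000347), and with that on GC content and length removed, at 1.00 (adjusted p = 0.000257), in a range of adjusted p of 0.000257 to 0.0598 over all alternatives. Slc22a7 did not pass, with 1.38 (adjusted p = 0.0968) by edgeR, and its PEC and HN mice overlapped. It was called higher without PEC mouse 3, at 1.78 (adjusted p = 0.0375), in a range of adjusted p of 0.0375 to 0.418. With each mouse left out, its log2 fold change ran from 0.59 to 1.87. Against Control, 5 of the 6 were still lower in PEC, with a median of -1.42. Slc2a12 was under the minimum fold with limma on log2(FPKM + 1), at -0.47 in HN and -0.51 in PEC against Control.

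URAT1 and other apical carriers are held in the membrane by PDZ scaffold proteins. Of 4 scaffold genes, 3 were lower in HN than in Control by edgeR, with -1.75 (adjusted p = 3.81e-05) for Pdzk1, -1.45 (adjusted p = 1.73e-05) for Pdzd3 and -0.70 (adjusted p = 0.000711) for Slc9a3r1 (NHERF1), and the same 3 were higher in PEC than in HN, with 0.73 (adjusted p = 0.00644), 0.61 (adjusted p = 0.00314) and 0.76 (adjusted p = 0.000662). Slc9a3r2 passed in neither. Some of these calls depend on the setting. In HN against Control Slc9a3r1 was not called with library totals alone, at -0.15 (adjusted p = 0.33), with limma on log2(FPKM + 1), at -0.16 (adjusted p = 0.274), and by edgeR without Control mouse 4, at -0.57 (adjusted p = 0.00127), in a range of adjusted p of 2.64e-06 to 0.33. In PEC against HN, library totals alone put all 3 under the minimum fold, with 0.53 for Pdzk1, 0.41 for Pdzd3 and 0.56 for Slc9a3r1, as did limma on log2(FPKM + 1), with 0.49, 0.37 and 0.54. Removal of GC content and length dependence did so for Slc9a3r1 (0.56) and Pdzd3 (0.38). Pdzd3, at 0.37 to 0.75 over all alternatives, was also under it with the dependence on length removed (0.50), with no filter on low counts (0.58), and without HN mouse 4 (0.54), PEC mouse 1 (0.54) or PEC mouse 2 (0.55). In PEC against Control, Pdzk1 and Pdzd3 were lower, the latter under the minimum fold with library totals alone (-0.49) and with limma on log2(FPKM + 1) (-0.52) or log2(FPKM + 0.1) (-0.54), and Slc9a3r1 had 0.060 (adjusted p = 0.678).

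URAT1 and the basolateral transporters exchange urate for anions that sodium-coupled carriers gather in the cell. Of 4 such genes, 3 were lower in HN than in Control by edgeR, with -2.02 (adjusted p = 4.77e-05) for Slc5a8, -1.90 (adjusted p = 2.47e-05) for Slc13a2 and -2.12 (adjusted p = 2.08e-06) for Slc13a3. In PEC mice compared with HN mice, the dicarboxylate carriers Slc13a2 and Slc13a3 were higher, with 1.44 (adjusted p = 0.000209) and 1.53 (adjusted p = 2.79e-05). The lactate carriers did not pass, with 0.039 (adjusted p = 0.893) for Slc5a8 and -1.08 (adjusted p = 0.0778) for Slc5a12. Slc5a12 was called lower with library totals alone, at -1.29 (adjusted p = 0.0367), with limma on log2(FPKM + 1), at -1.42 (adjusted p = 0.0136), and by edgeR without PEC mouse 2, at -1.93 (adjusted p = 0.000224), in a range of adjusted p of 0.000224 to 0.206. Slc5a8 was called higher with the dependence on GC content and length removed, at 0.66 (adjusted p = 0.0305), in a range of 0.0305 to 1. Both were lower in PEC than in Control, with -1.98 (adjusted p = 6.17e-05) and -2.21 (adjusted p = 0.00331). Slc13a3 was just past the minimum fold there, with -0.59 (adjusted p = 0.00131), and lost its call in 12 of 22 alternatives, with values of -0.81 to -0.23 and adjusted p of 3.04e-05 to 0.0773. Among these were library totals alone, at -0.23 (adjusted p = 0.0773), DESeq2, at -0.57 (adjusted p = 3.04e-05), and edgeR without Control mouse 2 (-0.56), PEC mouse 1 (-0.57) or PEC mouse 3 (-0.50). Slc13a2, at -0.45 (adjusted p = 0.0425), was called lower without PEC mouse 2, at -0.65 (adjusted p = 0.00472), and with GC content and length dependence removed, at -0.75 (adjusted p = 0.00564), in a range of 0.00472 to 0.642. Its log2 fold change ran from -0.65 to -0.30 with each mouse left out, and from -0.75 to -0.099 over all alternatives. In HN against Control Slc5a12 had -1.13 (adjusted p = 0.065), and was called lower with only these groups fitted, at -1.09 (adjusted p = 0.000827), and with the dependence on length removed, at -1.22 (adjusted p = 0.0498). It was also called without PEC mouse 2, at -1.12 (adjusted p = 0.000567), or PEC mouse 3, at -1.13 (adjusted p = 0.0325), in a range of 0.000567 to 0.279.

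Hnf4a and Hnf4g encode factors that act on proximal tubule genes. Both were lower in HN than in Control by edgeR, with -1.56 (adjusted p = 3.27e-06) for Hnf4a and -1.39 (adjusted p = 0.00497) for Hnf4g. In PEC mice Hnf4g (-1.63, adjusted p = 0.00308) was lower than in HN. Hnf4a (0.61, adjusted p = 0.000661) was higher, just past the minimum fold, and lost its call in 8 of 22 alternatives, with values of 0.39 to 0.74. Among these were library totals alone (0.41), limma on log2(FPKM + 1) (0.39), and edgeR without HN mouse 8 (0.57) or PEC mouse 2 (0.56). Hnf4g was at 11.3, 8.82 and 10.8 CPM in Control mice, 3.49, 5.05 and 3.28 CPM in HN mice and 1.17, 0.806 and 1.84 CPM in PEC mice, so that PEC mice were lowest and Control mice highest, without overlap. In PEC against Control both were lower, with -0.95 (adjusted p = 4.22e-05) and -3.02 (adjusted p = 8.99e-05).

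The tissue markers fit the kidney label, with a summed level of 18586, 18999.8 and 21894 CPM for the 8 proximal tubule markers in Control mice. In HN mice the sum was 4097, 3966 and 4205 CPM and in PEC mice 9097, 10656 and 6669 CPM. By mean FPKM Slc27a2 was the most abundant of them in Control and HN mice and Miox in PEC mice. By edgeR 8 of 8 were lower in HN than in Control, with a median log2 fold change of -2.12, 7 of 8 were higher in PEC than in HN (0.87), and 7 of 8 were lower in PEC than in Control (-1.12). The 6 injured tubule markers summed to 886, 959.7 and 836 CPM in Control mice, 19656, 17013 and 17038 CPM in HN mice and 15027, 15342 and 12686 CPM in PEC mice, with Spp1 the most abundant by FPKM in each group. All 6 were higher in HN than in Control and in PEC than in Control, and 2 of 6, Vcam1 and Sox9, were lower in PEC than in HN.

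Markers of other cells moved too. The 6 immune cell markers summed to 38.5, 45.9 and 41.9 CPM in Control mice, 434, 487 and 368 CPM in HN mice and 132, 173 and 219 CPM in PEC mice, with C1qa the most abundant by FPKM in each group. Of them 6 of 6 were higher in HN than in Control, 3 lower in PEC than in HN and 4 higher in PEC than in Control. The 4 fibroblast markers summed to 209, 205 and 159 CPM in Control mice, 914, 940.1 and 829 CPM in HN mice and 504, 531 and 466 CPM in PEC mice, the most abundant by mean FPKM being Pdgfrb in Control mice and Col1a1 in HN and PEC mice. Of them 4 of 4 were higher in HN than in Control, 3 of 4 lower in PEC than in HN and 3 of 4 higher in PEC than in Control. Of the 4 thick limb and distal tubule markers 3 were lower in HN than in Control and 2 higher in PEC than in HN, and of the 4 collecting duct markers 4 were lower and 3 higher in these comparisons. In PEC against Control, 2 of the thick limb and distal tubule markers and 3 of the collecting duct markers were lower. Of the 4 podocyte and endothelial markers 1 was lower in HN than in Control, with a median of -0.21. Among these 4, 1 was higher in PEC than in HN and 1 lower in PEC than in Control. The thick limb and distal tubule markers summed to 5243, 5830.2 and 5706 CPM in Control mice, 4795, 4144 and 4542 CPM in HN mice and 4875, 5045 and 4547 CPM in PEC mice, with Umod the most abundant by FPKM in each group. The sums of the collecting duct markers were 731, 791 and 428 CPM in Control mice, 281, 179 and 261 CPM in HN mice and 359, 339 and 454 CPM in PEC mice, with Aqp2 the most abundant by FPKM in each group, and those of the podocyte and endothelial markers 268, 277 and 304 CPM in Control mice, 220.1, 224 and 204 CPM in HN mice and 200.1, 222 and 274 CPM in PEC mice, the most abundant by mean FPKM being Pecam1 in Control and HN mice and Emcn in PEC mice. No marker was at 0 in any library. The part of these shifts between cell types in the transporter values was not tested.

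**Figure D3:**
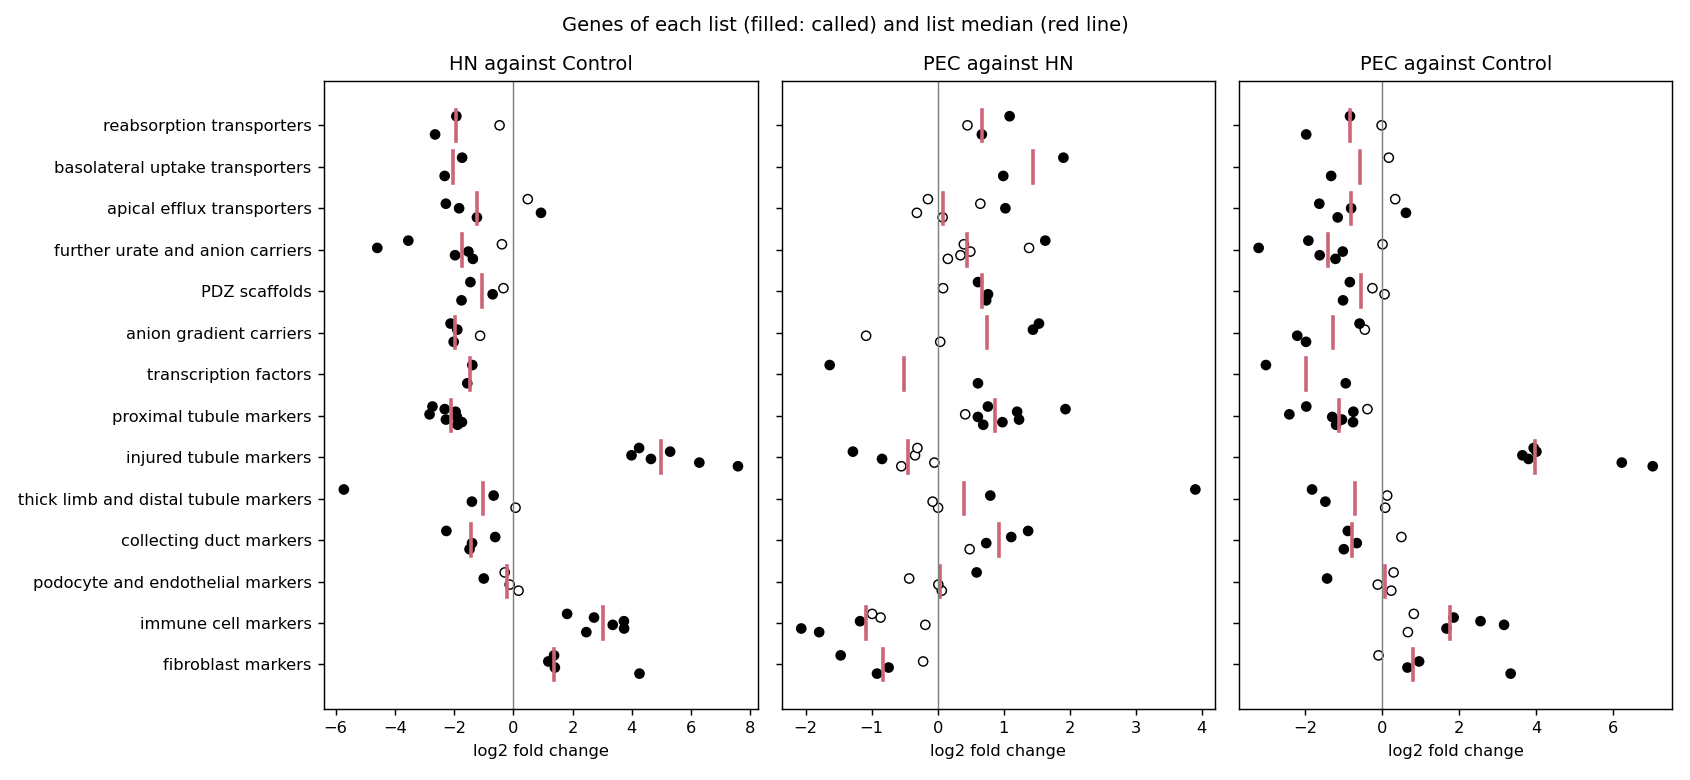
The edgeR log2 fold change of every gene of each list in the 3 comparisons, filled where called, with a red line at the median of the list. In HN against Control the proximal tubule markers have a median of -2.12 and the injured tubule markers one of 4.97 (horizontal scales differ between panels).

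For levels relative to the proximal tubule, the mean log2 CPM of the 8 proximal tubule markers was subtracted from the log2 CPM of each transporter in each mouse. Whether each transporter was expressed in proximal tubule cells was not tested. With 3 mice against 3, the exact two-sided permutation test cannot give a p below 0.1. In HN against Control, 6 of the 10 transporters did not overlap and were higher relative to the markers, against 90.6% of all tested genes, and 0 were lower, against 0.594%. The share of higher transporters is below that of all genes. Slc22a12, Slc22a6, Slc22a13 and Slc17a3 overlapped between HN and Control, with differences in log2 of -0.45, -0.12, 0.28 and -0.060 (exact p = 0.3, 0.6, 0.2 and 0.6). Without HN mouse 8, 2 of these, Slc22a12 and Slc22a6, were lower in HN without overlap, against 0.954% of all tested genes in the same mice. The 6 were higher by 3.14 (Abcc4), 2.75 (Slc17a4), 1.73 (Slc2a9), 0.97 (Abcg2), 0.47 (Slc22a8) and 0.37 (Slc17a1), each with exact p = 0.1. Their own edgeR log2 fold changes were 0.93, 0.48, -0.47, -1.23, -1.73 and -1.83 in the same order. The markers themselves had a median of -2.12, so that a gene that fell less than they did is higher relative to them.

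Slc22a8 relative to the markers stood at -2.20, -2.02 and -2.49 in Control mice, -1.63, -1.71 and -1.94 in HN mice and -0.70, -1.16 and -0.56 in PEC mice. The 3 groups did not overlap, with PEC highest. In PEC against HN only Slc22a8 was higher relative to the markers without overlap, 1 of 10 against 4.2% of all tested genes, with a difference of 0.95 (exact p = 0.1). Without PEC mouse 2, 2 of the 10 were higher, Slc22a8 and Slc22a13, against 7.27% of all tested genes in the same mice. Lower were 5 of 10, against 60.4%, a share near that of all genes, among them Abcg2 with -0.88 and Abcc4 with -1.26. Slc22a12 overlapped, with -0.28 (exact p = 0.2), as did Slc22a6 with 0.0045 (exact p = 1). In PEC against Control, 2 of 10 were lower, Slc22a12 with -0.73 and Slc17a3 with -0.42, against 2.44% of all tested genes, and 5 were higher, against 71.4%. Of these Slc22a8 had a difference of 1.43 (exact p = 0.1).

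**Figure D4:**
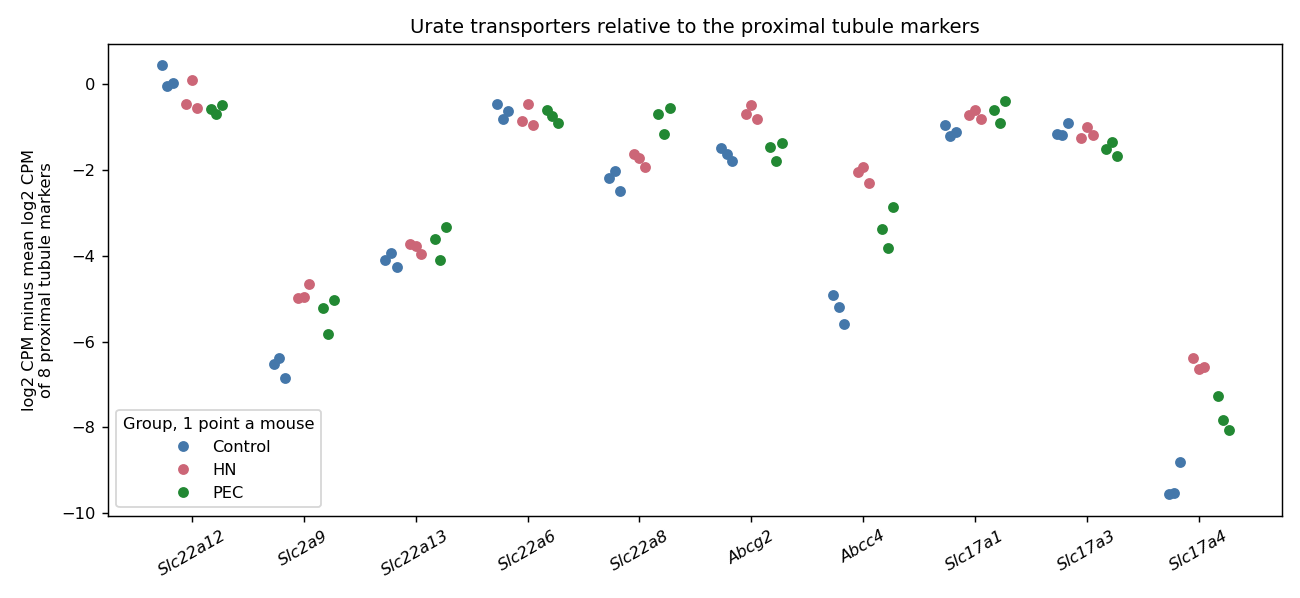
Log2 CPM of each transporter minus the mean log2 CPM of the 8 proximal tubule markers, with 1 point for each mouse and colours for the groups. The Slc22a8 points of the PEC mice lie above those of the HN mice, and the Abcc4 points of the HN mice lie 3.14 above those of the Control mice on average.

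The genes outside the 10 whose log2 CPM followed a transporter most closely over the 9 libraries were named by Pearson's r, as a description. For Slc22a12 they were Timp3 (r = 0.996), Coq2 (0.995) and Abcc2 (0.991). For Slc2a9 they were Borcs5 (0.951), Tlcd1 (0.944) and Jpx (0.939), and for Abcg2 Acss1 (0.996), 2310039H08Rik (0.994) and Abhd3 (0.993). The 9 libraries fall into 3 groups, so that genes that differ between the groups correlate with each other.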

How the data were processed

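Per the labels, total RNA of 9 kidneys was selected for poly(A) and sequenced. The authors deposited whole-number counts and FPKM per gene. The submitters' processing notes name Bowtie 0.12.2, mm8 and mm9, while the coordinates are those of GRCm38. The transporters and gene lists were chosen with earlier results of these data known. Counts were fitted with edgeR 4.0.16 in R 4.3.3 (filterByExpr, TMM, glmQLFit, glmQLFTest) in 1 fit over 9 libraries, with Benjamini-Hochberg adjustment over 21392 genes. Genes named are those of the fixed lists and, for Slc22a12, Slc2a9 and Abcg2, the 3 with the highest r. Alternatives were RLE factors, library totals, no mitochondrial genes, DESeq2 1.42.0, limma 3.58.1 on log2(FPKM + 1) or log2(FPKM + 0.1) at a mean FPKM of at least 0.5, no filter, only the groups compared, other call rules, removal of length dependence and each mouse left out. Chosen after seeing the data were removal of GC and length dependence, and the alternatives of the values relative to markers. Exact permutation tests used scipy 1.17.1. Protein sequences were not used here. Some genes of the lists and a motif are not reported here.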

Additional observations from a re-analysis of the deposited data

How the results depend on the processing

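Of 30 log2 fold changes of transporters, 17 kept their direction and their side of the call rule in all 22 alternatives. With the further genes, 1549 of 1710 values did so, 73 lost a call, 32 gained one and 56 changed sign, 53 of these with an adjusted p above 0.05 in both fits. Counts of 3 mice a group limit what leaving out a mouse can show, and the cause of the changes was not tested except where a call rule makes them.

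Library totals alone gave 2 transporters and 7707 genes higher and 1287 lower in HN against Control, and 6414 genes higher and 1962 lower in PEC against Control. Limma on log2(FPKM + 1) gave 1024 genes lower in HN against Control, 1356 higher in PEC against HN and 1485 lower in PEC against Control. With log2(FPKM + 0.1) these were 1191, 1683 and 1919, with 2 transporters and 5906 genes higher in HN against Control. A fold of at least 2 left 0 transporters higher and 1902 genes lower in HN against Control, 3 transporters and 1771 genes higher and 1823 lower in PEC against HN, and 0 transporters higher and 2089 genes lower in PEC against Control. With each mouse left out, 0 to 1 transporters were higher in PEC against Control, the 0 without Control mouse 5. Relative to the proximal tubule markers, 0 to 2 were lower in HN against Control, the 2 without HN mouse 8, and 1 to 2 higher in PEC against HN, the 2 without PEC mouse 2.

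With library totals and limma at both pseudocounts, in that order, the log2 fold change changed sign in HN against Control to 0.089, 0.042 and 0.054 for Slc2a9 and 0.23, 0.17 and 0.18 for Slc9a3r2. In PEC against HN it did so to -0.12, -0.14 and -0.15 for Abcg2, -0.050, -0.037 and -0.073 for Slc2a12, -0.13, -0.14 and -0.15 for Slc9a3r2 and -0.17, -0.20 and -0.22 for Slc5a8. In PEC against Control it did so to 0.34, 0.22 and 0.29 for Slc2a9 and 0.10, 0.030 and 0.030 for Slc9a3r2. With library totals Slc17a2 had 0.19 in HN against Control. Removal of length dependence gave 0.078 for Slc17a4 in PEC against HN, and 0.022 for Slc2a9, -0.036 for Slc17a2 and -0.055 for Slc9a3r1 in PEC against Control. Removal of GC and length dependence, chosen after seeing the data, gave 0.11 for Slc17a4 in PEC against HN, and -0.24 for Slc9a3r1 in PEC against Control. Slc2a9 in PEC against Control was also above 0 with RLE factors (0.00417), without mitochondrial genes (0.00381), with DESeq2 (0.00756) and with only the groups compared (0.00702).

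Leaving out each mouse changed the sign in 10 results. Slc17a2 ranged from -0.90 to 0.19 in HN against Control, -0.31 to 0.91 in PEC against HN and -0.69 to 0.46 in PEC against Control. In PEC against HN the range was -0.00089 to 0.21 for Abcg2, -0.42 to 0.16 for Slc17a4, -0.035 to 0.33 for Slc2a12, -0.17 to 0.30 for Slc9a3r2 and -0.26 to 0.18 for Slc5a8. In PEC against Control it was -0.12 to 0.069 for Slc2a9 and -0.00422 to 0.18 for Slc9a3r1. No paired analysis was made, because the groups are of different mice and the mouse numbers do not pair them.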
